A study of Mus musculus with 13 samples.

Results

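Il10, Ebi3, Fgl2, Entpd1, Nt5e and Adora2a encode secreted or surface-bound mediators through which regulatory T (Treg) cells restrain other lymphocytes, or a receptor that receives such a signal. The 6 genes were taken by symbol from a table of 12963 genes, and all 6 passed the filter on low values, which kept 12667 genes for testing. RNA had been sequenced from T cells sorted out of B16-F10 tumors, which arise from a mouse melanoma line and were grown as subcutaneous grafts in Foxp3-EGFP-DTR mice. The question addressed here is which of these mediators were transcribed by tumor Treg cells and which by CD4+ and CD8+ conventional T (Tconv) cells when Treg cells were present or ablated.

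All 13 libraries came from the same genotype, in which Foxp3 controls both green fluorescent protein and the receptor for diphtheria toxin. PBS-treated controls therefore carry the receptor too. PBS-treated mice gave Treg cells (Treg PBS, n = 3), CD4+ Tconv cells (CD4 PBS, n = 2) and CD8+ Tconv cells (CD8 PBS, n = 2), and mice given diphtheria toxin (DTx), which kills Foxp3-expressing cells, gave CD4+ (CD4 DTx, n = 3) and CD8+ Tconv cells (CD8 DTx, n = 3). Because the receptor follows Foxp3 in every tissue, the toxin is not confined to Treg cells of the tumor. The study describes biological replicates collected on separate days, but neither it nor the labels say which libraries share a day or how many animals gave a library, and the labels give no age. With 2 libraries in each PBS-treated Tconv group, p-values rest on a spread estimated over all 5 groups.

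Values are called normalized reads, meaning whole reads divided by 1 size factor per library. The libraries held 15947556 to 34140486 recovered reads, and 3 reads, taken as the detection floor, came to 1.98 to 4.10 normalized reads. These floors cover counting error only, since reads without molecular identifiers are not independent molecules. The Treg PBS libraries held 1178 to 1896 normalized reads of Foxp3 and the other 10 held 0 to 12.1, and Cd3e was at 20019 or more in every library. Cd4 ranged over 10595 to 32504 normalized reads outside the CD8 libraries and over 0 to 413 within them, where Cd8a ranged over 23475 to 48330. CD4 DTx replicates 1, 2 and 3 held Cd8a at 0.256%, 1.77% and 3.24% of its CD8 DTx mean. Replicate 3 of CD4 PBS and of CD8 PBS stood apart with Socs3 at 17050 and 17170 normalized reads, against 485 to 4110 in the other libraries, and with summed levels of Hba-a1, Hba-a2 and Alas2 of 6567 and 6570, against 0 to 3216. Calls of named genes lost without replicate 3 of the PBS group are given beside the result, where the remaining library of that group is assumed to vary like the other groups. With 1 library left in that group, a call can be lost at an unchanged fold change. A lost call therefore does not show that replicate 3 made the result.

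IL-10 is a cytokine that dampens antigen-presenting cells and T cells through a receptor that activates STAT3. Ebi3 is a cytokine subunit that pairs with the Il12a product to form IL-35 or with the Il27 product to form IL-27. Fgl2 is a fibrinogen-like protein that is secreted or held at the surface and binds Fc receptors. CD39, encoded by Entpd1, and CD73, encoded by Nt5e, act in sequence to turn extracellular ATP into adenosine, which raises cyclic AMP in T cells through the receptor encoded by Adora2a.

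Per kilobase of exon (GENCODE vM21), Treg PBS libraries held on average 4359 normalized reads of Fgl2, 2122 of Ebi3, 1794 of Nt5e, 1084 of Entpd1, 1038 of Il10 and 95.3 of Adora2a. Fgl2 was thus the most abundant mediator in tumor Treg cells by this scale, and the receptor gene was the least. In CD8 DTx, Fgl2 stood at 2557 normalized reads per kilobase and Entpd1 at 867, while Il10 stood at 28.7 and Ebi3 at 37.1. CD4 DTx held 1299 of Fgl2, 841 of Entpd1, 713 of Nt5e, 514 of Ebi3 and 67.8 of Il10 on the same scale.

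**Figure D1:**
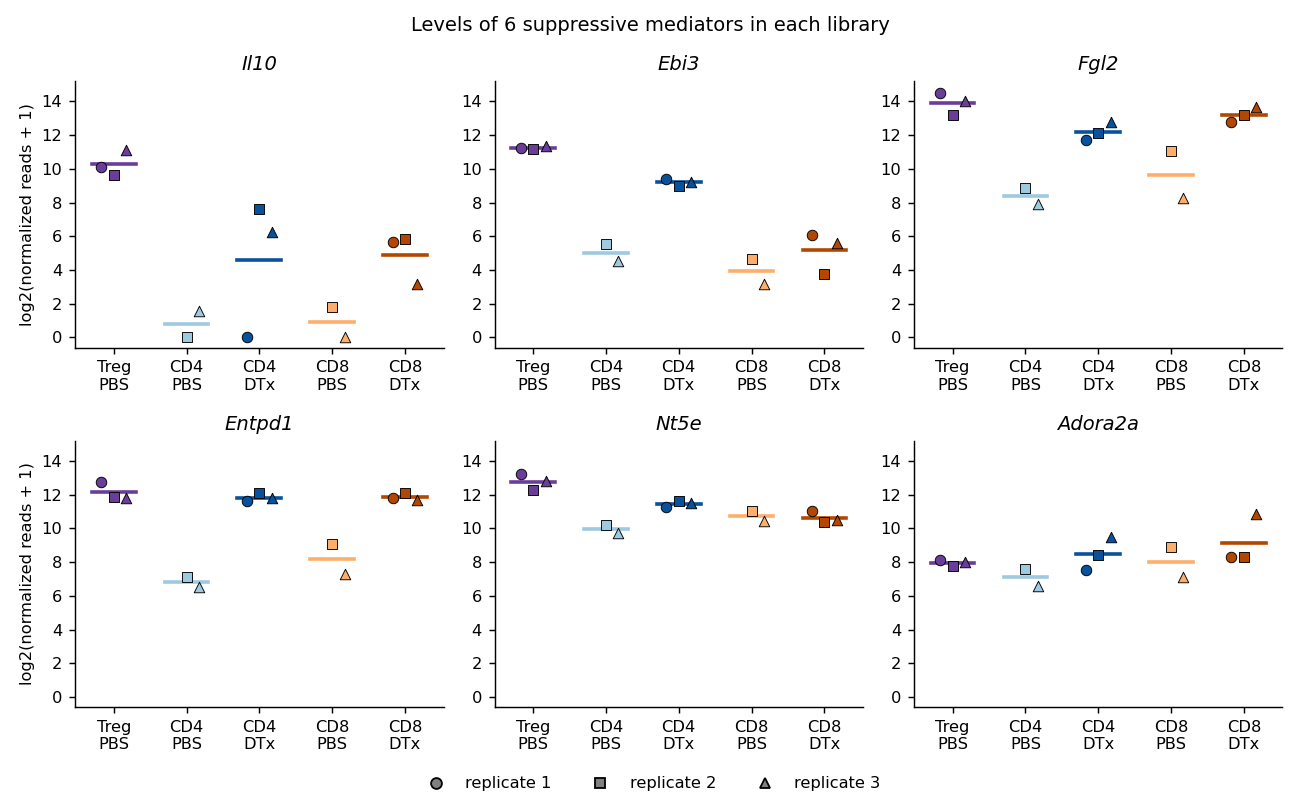
Levels of the 6 genes as log2(normalized reads + 1) in each of the 13 libraries, by group, with symbols for the replicate number and a bar at the mean of the log2 values. Il10 spans 783 to 2214 normalized reads over the Treg libraries and is at 0 in CD4 DTx replicate 1, Ebi3 in CD4 DTx lies between Treg PBS and the CD8 libraries, Entpd1 in both DTx groups overlaps Treg PBS, and Adora2a shows no such separation.

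By counts of calls (limma with a Benjamini-Hochberg adjusted p under 0.05 over all 12667 genes), 5 of the 6 mediators (all but Adora2a) were higher in Treg PBS than in CD4 PBS, where 13.5% of all genes tested were called higher and 6.91% lower, and the libraries of all 6 lay apart, as did those of 29.2% of genes in that direction. The same 5 were higher in Treg PBS than in CD8 PBS (11.9% of genes). Summed markers of other cells also lay wholly higher in Treg PBS than in CD4 PBS, at 485 to 985 normalized reads against 147 to 272 for B cells, 542 to 1158 against 102 to 312 for dendritic cells and 782 to 1229 against 435 to 498 for melanocytes. Their part in these differences was not tested. Upon ablation 4 of 6 rose in CD4 cells (Ebi3, Fgl2, Entpd1 and Nt5e, where 8.64% of genes rose and 4.08% fell) and 2 of 6 in CD8 cells (Fgl2 and Entpd1, where 7.4% of genes rose and 3.47% fell). The libraries of the 4 and of 3 of the 6 (Il10, Fgl2 and Entpd1), respectively, lay wholly above their PBS groups, as did those of 23.4% and 22.8% of genes. The median log2 fold change of the 6 was 3.83 in CD4 and 2.40 in CD8 cells, against -0.04 and -0.03 over all genes. Relative to Treg PBS, 2 of 6 were lower in CD4 DTx (Il10 and Nt5e, where 4.55% of genes were lower) and 2 of 6 in CD8 DTx (Ebi3 and Nt5e, where 4.71% were lower). Ebi3 alone was higher in CD4 DTx than in CD8 DTx (0.75% of genes), none was called between CD4 PBS and CD8 PBS (1.08% of genes in either direction, with Entpd1 and Nt5e at an unadjusted p under 0.05 in limma), and none passed the test of a difference between the effects of ablation (0.0474% of genes), where Ebi3 and Nt5e had an unadjusted p under 0.05. Comparisons that share a group, such as both that use CD4 PBS, are not independent of each other.

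**Figure D2:**
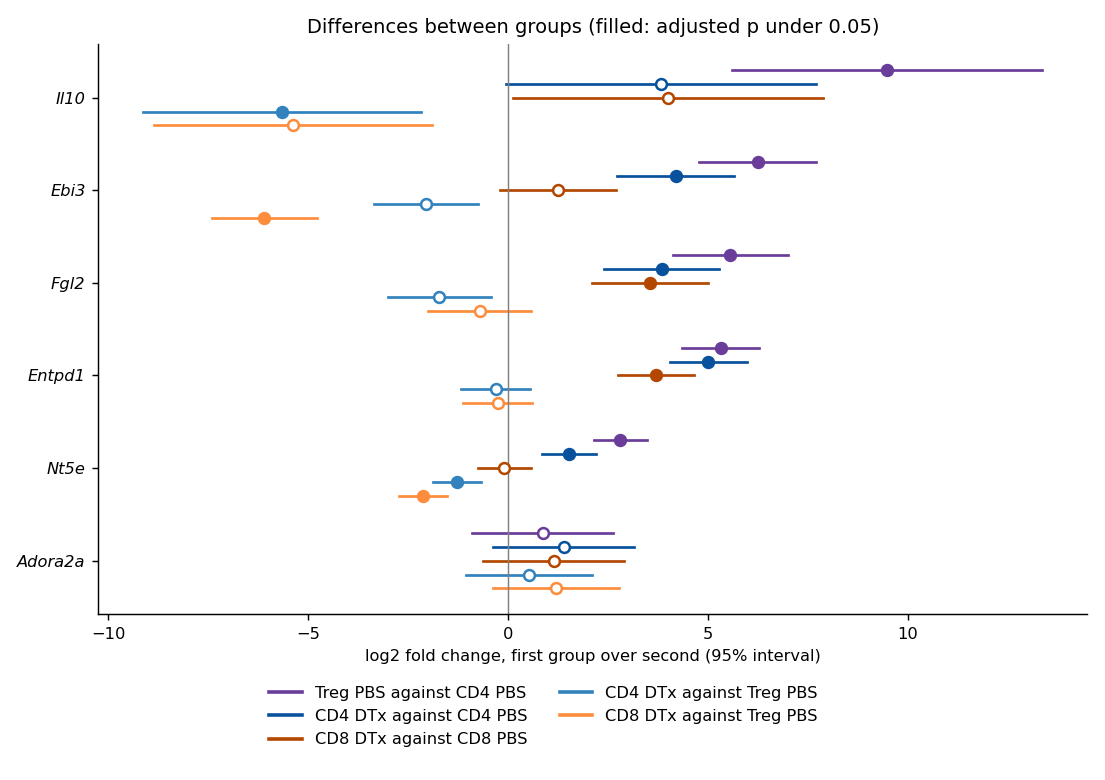
Log2 fold change of each mediator in 5 comparisons with its 95% interval from limma, filled where the adjusted p is under 0.05. Entpd1 intervals against Treg PBS span 0 for both DTx groups (-1.17 to 0.55 and -1.13 to 0.59), Ebi3 in CD8 DTx lies at -6.10 against Treg PBS, and Il10 has the widest intervals; the first 2 comparisons share CD4 PBS and the last 2 share Treg PBS.

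Il10 was almost absent from Tconv cells of PBS-treated mice. Treg PBS replicates 1, 2 and 3 held 1081, 783 and 2214 normalized reads, CD4 PBS replicates 2 and 3 held 0 and 1.98, and CD8 PBS replicates 2 and 3 held 2.43 and 0. The counts in both PBS-treated Tconv groups were at or below the floor, and every Treg library lay above all other libraries. Pooled over libraries, the 3881 reads of Treg cells against the 3 of CD4 PBS gave a ratio of 984 (95% interval 336 to 4772, exact, counting error only), and 2 reads in CD8 PBS gave a ratio of 1034 (286 to 8538). In the limma fit across all genes, the differences from CD4 PBS and CD8 PBS were called, the larger adjusted p being 0.00356, although without CD8 PBS replicate 3 the CD8 PBS difference was not (8.49, adjusted p = 0.0523).

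In mice without Treg cells, Il10 was found in 5 of 6 Tconv libraries. CD4 DTx replicates 1, 2 and 3 held 0, 191 and 75.1 normalized reads, and CD8 DTx replicates held 49.0, 55.9 and 8.08. One CD4 DTx library thus had no read for Il10, so CD4 DTx overlapped CD4 PBS, whereas all 3 CD8 DTx libraries lay above both CD8 PBS libraries. The pooled reads, 244 against 3, gave a ratio of 65.1 in CD4 cells (22 to 318), and 117 against 2 gave 32.1 in CD8 cells (8.70 to 269), again with counting error only. Neither increase passed the test across libraries (limma, log2 fold change 3.82, SE 1.78, adjusted p = 0.196 in CD4; 4.0, SE 1.78, adjusted p = 0.179 in CD8). Without CD4 DTx replicate 1, the CD4 fold change was 6.13 and was called (limma, adjusted p = 0.00406), and DESeq2 on the recovered reads called it with all libraries (6.32, adjusted p = 0.0107); edgeR gave an adjusted p of 0.0620. No alternative called Il10 in CD8 cells, where adjusted p ranged from 0.0750 to 0.570.

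Il10 remained below its Treg level in both DTx groups. Means came to 6.53% of the Treg mean for CD4 DTx and 2.77% for CD8 DTx. Every DTx library lay below every Treg library. The CD4 DTx difference was called (limma, log2 fold change -5.66, SE 1.59, adjusted p = 0.0499), although 10 of 13 alternatives lost that call, with adjusted p between 0.00732 and 0.170. The CD8 DTx difference of -5.38 was not called (limma, SE 1.59, adjusted p = 0.0591) and passed in 5 of 13 alternatives, the replicate block among them (adjusted p = 0.0439), with a range of 0.00340 to 0.181. The levels in CD4 DTx and CD8 DTx overlapped and their difference was not called (-0.27, 95% interval -3.74 to 3.20, limma, adjusted p = 0.992). The sign of that last difference changed without the library at 0 (2.03) and, with it kept, at a pseudocount of 10 (0.43), in edgeR (1.21) and in DESeq2 (1.23). The untransformed mean was 88.8 ± 96.3 normalized reads in CD4 DTx and 37.6 ± 25.8 in CD8 DTx (SD, n = 3 each).

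**Figure D3:**
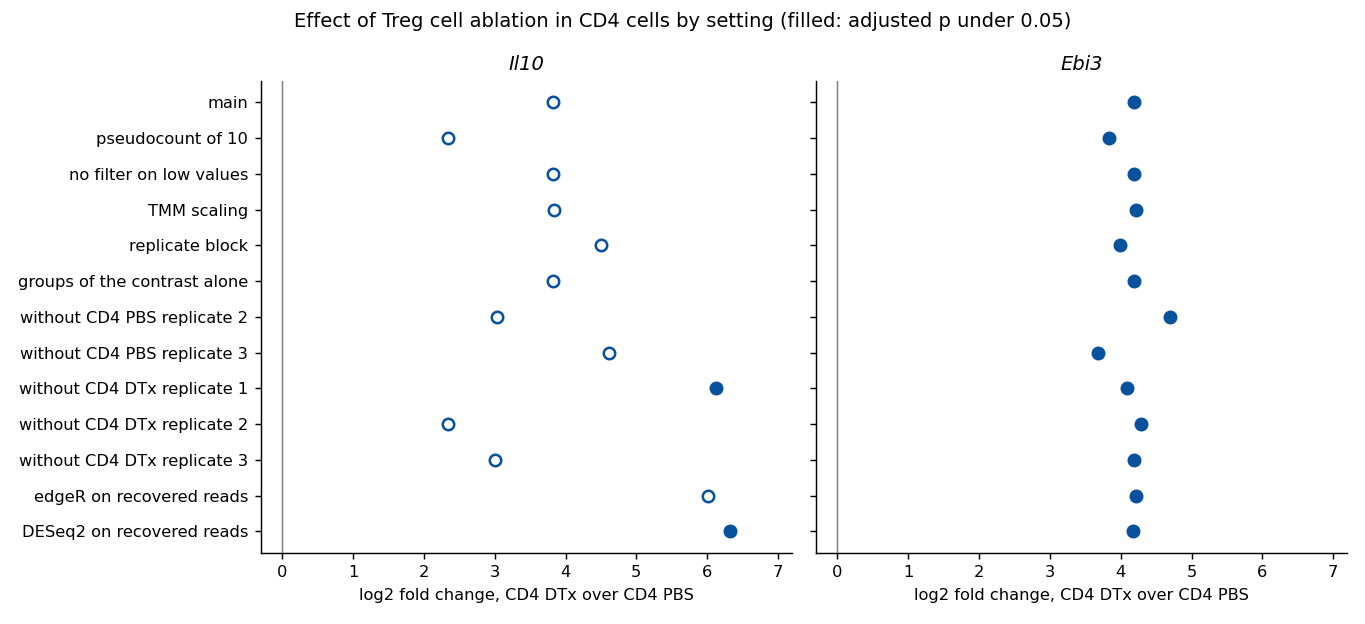
Log2 fold change of Il10 (left) and Ebi3 (right) in CD4 DTx over CD4 PBS in the main fit (top row) and in each alternative setting, with filled points where the adjusted p is under 0.05. Il10 spans 2.34 to 6.32 and is filled in 2 of 12 alternatives, whereas Ebi3 spans 3.68 to 4.69 and is filled in all 12.

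The receptor for IL-10 was described from a list of 9 receptor and signalling genes, all tested. For Il10ra, the ligand-binding chain, the Treg PBS libraries held 4605, 5584 and 5038 normalized reads, the CD4 PBS libraries 1816 and 621, and the CD4 DTx libraries 3937, 6832 and 7012. All libraries of Treg PBS and CD4 DTx lay above those of CD4 PBS. Il10ra was the only gene of the list called in CD4 DTx against CD4 PBS (limma, log2 fold change 2.43, SE 0.51, adjusted p = 0.00779). Over all genes, 8.64% rose and 4.08% fell in that comparison. Without CD4 PBS replicate 3 that call was lost (1.66, adjusted p = 0.135). In CD8 cells Il10ra went from 3109 and 1072 in CD8 PBS to 5078, 4270 and 9125 in CD8 DTx, a difference that was not called (1.67, adjusted p = 0.0562). Il10rb, the shared second chain, differed between Treg PBS and CD4 PBS (1.04, adjusted p = 0.0153) but not by the test in CD4 DTx (0.46, adjusted p = 0.292) or CD8 DTx (0.27, adjusted p = 0.538) against their PBS groups. Of the list, 3 genes were higher in Treg PBS than in CD4 PBS and 1 was lower (13.5% and 6.91% of all genes), Bcl3 at 1.17 and Jak1 at -0.82 among them. Without CD4 PBS replicate 3, Il10ra (1.48), Il10rb (1.04) and Jak1 (-0.73) lost that call and Bcl3 (1.53) kept it. None of the list was called in CD8 DTx against CD8 PBS, where 7.4% of all genes rose and 3.47% fell. There the list's median log2 fold change was -0.17, against -0.03 over all genes.

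Several transcription factors known to regulate Il10 in T cells differed between the groups. Of 13 tested, 7 were higher in Treg PBS than in CD4 PBS and none lower (13.5% and 6.91% of all genes). In CD4 DTx 8 rose and none fell (8.64% and 4.08%), and in CD8 DTx 4 rose and 2 fell (7.4% and 3.47%). Without replicate 3 of the PBS group some of these calls were lost in each comparison, and the share of all genes called in those fits was not computed. Maf, a strong activator of Il10 in helper cells, had 3576 to 4740 normalized reads in the Treg libraries, 283 and 177 in those of CD4 PBS, and 2966, 2949 and 2137 in those of CD4 DTx (limma, log2 fold change 3.56, SE 0.38, adjusted p = 1.58e-04). It was at 183 and 65.3 in CD8 PBS and at 191 to 204 in CD8 DTx, and was higher in CD4 DTx than in CD8 DTx (3.75, adjusted p = 2.42e-04). CD4 DTx replicate 1, which had no read for Il10, thus held no less Maf than the other two. Bhlhe40, a repressor of Il10, rose in CD4 DTx (3.78, adjusted p = 8.08e-05) and in CD8 DTx (3.30, adjusted p = 4.32e-04). Tbx21 rose in both (3.24 and 2.57), as did Prdm1, which encodes Blimp-1 (1.85 and 3.14), and Ahr rose in CD4 DTx (3.68). Without replicate 3 of the PBS group, Tbx21 in CD8 cells (adjusted p = 0.0734) and Prdm1 in CD4 cells (adjusted p = 0.203) were not called. Jun (-4.75) and Junb (-2.67), which encode AP-1 subunits, fell in CD8 DTx, and neither was called without CD8 PBS replicate 3 (-3.64 and -1.57, adjusted p = 0.359 and 0.419). Junb in CD8 PBS was at 12162 and 56238 normalized reads, so the library that stood apart held most of it. No IL-10 family cytokine among 6 listed (Il19, Il20, Il22, Il24, Ifnl2, Ifnl3) had a row.

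Ebi3 was high in Treg cells, intermediate in CD4 cells after ablation and low in CD8 cells. Treg PBS replicates 1, 2 and 3 held 2449, 2283 and 2613 normalized reads, CD4 PBS replicates 2 and 3 held 45.1 and 21.8, and CD4 DTx replicates held 677, 511 and 590. CD8 PBS held 24.3 and 8.0, and CD8 DTx held 67.4, 12.5 and 48.5. The 3 tiers of Treg PBS, CD4 DTx and the remaining 7 libraries did not overlap, while CD8 DTx overlapped both PBS-treated Tconv groups. Replicates were tight in the upper tiers, at 2448 ± 165 in Treg PBS and 593 ± 82.9 in CD4 DTx (SD, n = 3 each).

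The rise of Ebi3 in CD4 cells was 18.2-fold (limma, log2 fold change 4.19, SE 0.67, adjusted p = 0.00155) and was called under all 12 alternatives. In CD8 cells the difference was 1.25 (95% interval -0.22 to 2.71) and was not called (limma, adjusted p = 0.259). Between the DTx groups Ebi3 was 16.5-fold higher in CD4 cells (4.04, SE 0.60, adjusted p = 0.00707). Same-numbered libraries of these 2 groups deviated together, and the call held with a replicate block but was lost when the 2 groups were fitted alone (adjusted p = 0.103). The test of the difference between the CD4 and CD8 effects of ablation gave 2.94 (95% interval 0.87 to 5.01), with an unadjusted p of 0.00917 in limma and an adjusted p of 0.693. CD4 DTx had 24.2% of the Treg mean, a difference that just missed the threshold (-2.05, limma, adjusted p = 0.0575) and passed it with a replicate block (adjusted p = 0.0462), as in 5 of 13 alternatives in all. CD8 DTx had 1.75% of the Treg mean (-6.10, limma, adjusted p = 7.77e-05).

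Of 9 genes listed for Ebi3 cytokines, related subunits and their receptors and signalling, 5 had rows. Il12a and Il27, whose products pair with Ebi3, had none, nor had the related Il12b and Il23a, so the pairing of Ebi3 cannot be read from these values. Il12rb2, a signalling chain of the IL-12 and IL-35 receptors, went from 528 and 255 normalized reads in CD4 PBS to 8049, 2646 and 4135 in CD4 DTx (limma, log2 fold change 3.60, SE 0.55, adjusted p = 0.00111). It went from 912 and 229 in CD8 PBS to 9871, 6428 and 6944 in CD8 DTx (4.05, adjusted p = 0.00118). Il6st, which encodes the gp130 chain used by IL-27 and IL-35, moved the other way, from 8750 and 7971 in CD4 PBS to 220, 796 and 1334 in CD4 DTx (-3.76, SE 0.61, adjusted p = 0.00161), and fell in CD8 DTx too (-3.34, adjusted p = 0.00518). Il27ra, the IL-27 receptor chain, had a difference of -0.02 in CD4 cells (adjusted p = 0.955) and fell in CD8 cells, with -0.79 (adjusted p = 0.0117). Altogether 3 of the 5 genes rose and 1 fell in CD4 DTx (8.64% and 4.08% of all genes), and 2 rose and 2 fell in CD8 DTx (7.4% and 3.47%). Il12rb1 was among those that rose in both (3.64 and 2.0). Without CD8 PBS replicate 3, Il12rb2 alone was called in CD8 cells (3.06), while Il6st (-3.25, adjusted p = 0.0734), Il27ra (-0.73, adjusted p = 0.166) and Il12rb1 (1.70, adjusted p = 0.273) were not.

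Fgl2 rose upon Treg cell ablation in both lineages. Treg PBS replicates 1, 2 and 3 held 23454, 9495 and 16588 normalized reads, CD4 PBS replicates 2 and 3 held 455 and 236, and CD4 DTx replicates held 3318, 4450 and 6995. CD8 PBS held 2104 and 305, and CD8 DTx held 6956, 9352 and 12755. Both DTx groups lay wholly above their PBS groups, and CD8 DTx overlapped Treg PBS while CD4 DTx did not. The 2 CD8 PBS libraries were 6.89-fold apart, the lower being replicate 3.

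The increase was 14.3-fold in CD4 (limma, log2 fold change 3.83, SE 0.66, adjusted p = 0.00250) and 11.7-fold in CD8 cells (3.55, SE 0.66, adjusted p = 0.00574). Without CD8 PBS replicate 3 the CD8 difference fell to 2.16 and was not called (adjusted p = 0.0862), and it was also not called when the 2 CD8 groups were fitted alone (adjusted p = 0.106). The effects in CD4 and CD8 cells differed by 0.28 (95% interval -1.76 to 2.33, limma, adjusted p = 1). Fgl2 reached 58.7% of the Treg mean in CD8 DTx (-0.72, 95% interval -2.01 to 0.57, adjusted p = 0.601) and 29.8% in CD4 DTx (-1.72, 95% interval -3.01 to -0.43, adjusted p = 0.105). Macrophages also transcribe Fgl2 and Entpd1, and the summed level of 11 macrophage and monocyte markers in the table, led by Lyz2 or Itgam, ranged over 1225 to 4179 normalized reads for Treg PBS, 1390 to 1623 for CD4 PBS, 139 to 2304 for CD4 DTx, 708 to 2283 for CD8 PBS and 1897 to 2760 for CD8 DTx. The study's gates for sorting tumor Tconv cells require a T cell receptor chain at the surface, and the sorted libraries held 51.0 to 2493 normalized reads of Lyz2. CD4 DTx replicates 1, 2 and 3 had sums of 139, 2304 and 1392, and in replicate 1, 6 of the 11 were at 0, Csf1r and Adgre1 included. The same libraries held 3318, 4450 and 6995 normalized reads of Fgl2 and 3102, 4323 and 3545 of Entpd1. In CD8 cells 2 of the 3 DTx sums lay above both PBS sums, but the markers did not move together. Itgam went from 205 and 13.3 in CD8 PBS to 513, 1554 and 1606 in CD8 DTx, and Cd68 from 273 and 124 to 1055, 1034 and 607. Lyz2 fell from 1321 and 497 to 195, 51.0 and 198, and Ms4a7 from 35.2 and 21.3 to 0.92, 0.96 and 9.42. The rest overlapped or were at 0 in both groups. The part of macrophages in the CD4 and CD8 results was not tested.

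The receptors through which Fgl2 acts, Fcgr2b and Fcgr3, were at 38.1 to 250 and 5.54 to 408 normalized reads across the libraries. Neither was called in any of the 9 comparisons. Fcgr2b had the larger difference in CD8 cells, at 1.53 (limma, adjusted p = 0.130).

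Promoter sequence from RefSeq (GRCm38.p6, the 250 bases before the annotated start) is printed for Fgl2 and Entpd1, which rose in both lineages, and for Ebi3. Ebi3 was called in CD4 and not in CD8 cells, as was Nt5e, whose sequence is not printed. For neither was the difference between the effects of ablation called. The deposited values were made on another build, so these positions apply to the sequences only. Of the 6 genes, 4 matched the RefSeq table (Ebi3, Fgl2, Entpd1 with 2 promoters, and Nt5e). Capitals mark exact matches on either strand to TGANTCA (AP-1), to TTC and GAA spaced by 3 bases (STAT), to TGCTGA (a MAF site core) or to GTAAACA (forkhead). The Fgl2 promoter lies at chr5:21372423-21372672, those of Entpd1 at chr19:40612116-40612365 and chr19:40659520-40659769, and that of Ebi3 at chr17:55952373-55952622, all on the plus strand.
Fgl2: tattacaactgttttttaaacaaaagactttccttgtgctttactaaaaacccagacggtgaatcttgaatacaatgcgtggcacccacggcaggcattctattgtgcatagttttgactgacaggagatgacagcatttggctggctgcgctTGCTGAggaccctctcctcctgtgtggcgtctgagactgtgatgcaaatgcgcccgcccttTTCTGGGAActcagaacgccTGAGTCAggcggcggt
Entpd1, first promoter: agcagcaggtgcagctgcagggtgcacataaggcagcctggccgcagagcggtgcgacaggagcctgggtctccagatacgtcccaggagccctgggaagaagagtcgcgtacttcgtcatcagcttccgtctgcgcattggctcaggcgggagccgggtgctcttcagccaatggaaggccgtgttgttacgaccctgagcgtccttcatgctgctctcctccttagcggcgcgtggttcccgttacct
Entpd1, second promoter: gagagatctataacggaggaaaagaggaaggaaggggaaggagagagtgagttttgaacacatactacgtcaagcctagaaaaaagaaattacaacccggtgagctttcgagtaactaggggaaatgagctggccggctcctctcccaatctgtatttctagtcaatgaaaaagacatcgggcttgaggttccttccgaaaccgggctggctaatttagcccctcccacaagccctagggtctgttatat
Ebi3: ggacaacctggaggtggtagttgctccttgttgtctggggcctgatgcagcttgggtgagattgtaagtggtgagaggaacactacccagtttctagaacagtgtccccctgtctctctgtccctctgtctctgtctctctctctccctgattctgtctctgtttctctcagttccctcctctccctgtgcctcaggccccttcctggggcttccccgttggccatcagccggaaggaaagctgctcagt

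The Fgl2 window held 1 match to the MAF core, 97 bases before the start, 1 to the STAT spacing, 36 bases before it, and 1 to the AP-1 sequence, 16 bases before it, and none overlapped another. The windows of Entpd1, Ebi3 and Nt5e held none of these. Among 32851 mouse promoter windows of the same length, 16.1% held the MAF core, 7.02% the STAT spacing, 6.75% the AP-1 sequence and 3.17% the forkhead sequence. Each Entpd1 window also held 1 match to TGACG, a cyclic AMP response core found in 17.8% of windows. These matches describe letters in short windows and are not binding sites shown by these data.

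Entpd1, which encodes CD39, rose from low levels to the Treg range in both lineages. Treg PBS replicates 1, 2 and 3 held 6865, 3642 and 3629 normalized reads, CD4 PBS replicates 2 and 3 held 137 and 91.8, and CD4 DTx replicates held 3102, 4323 and 3545. CD8 PBS held 528 and 156, and CD8 DTx held 3633, 4453 and 3218. The 9 libraries of Treg PBS and the DTx groups spanned 3102 to 6865 with overlap between the groups, and all lay above the 4 PBS-treated Tconv libraries.

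The increase was 32.1-fold in CD4 cells (limma, log2 fold change 5.0, SE 0.44, adjusted p = 6.98e-05) and 13-fold in CD8 cells (3.70, SE 0.44, adjusted p = 6.14e-04). Without replicate 3 of the PBS group these were 4.72 and 2.82, and both were still called (adjusted p = 0.00119 and 0.00871), while the CD8 call was narrowly lost when the CD8 groups were fitted alone (adjusted p = 0.0522). CD4 DTx and CD8 DTx stood at 77.6% and 80.0% of the Treg mean, with differences of -0.31 (95% interval -1.17 to 0.55) and -0.27 (-1.13 to 0.59) that were not called. The interval for CD4 DTx leaves room for a level between 0.444 and 1.46 times that of Treg cells. The larger fold in CD4 cells went with a lower start, as CD4 PBS libraries lay below CD8 PBS libraries (-1.35, unadjusted p = 0.0162 and adjusted p = 0.415 in limma), and the difference between the effects of ablation was 1.31 (95% interval -0.05 to 2.67, adjusted p = 1).

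**Figure D4:**
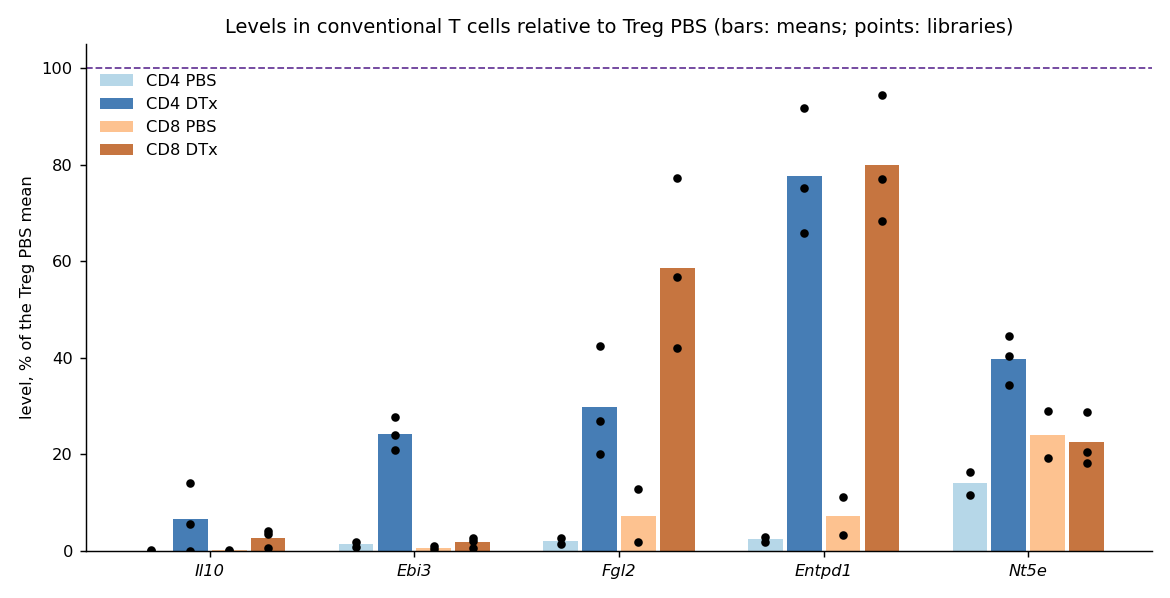
Level of 5 mediators in each Tconv group as a percentage of the mean of the 3 Treg PBS libraries, with bars for group means, points for libraries and a dashed line at 100%. Entpd1 reaches 77.6% in CD4 DTx and 80.0% in CD8 DTx, Fgl2 29.8% and 58.7%, Nt5e 39.7% and 22.5%, Ebi3 24.2% and 1.75%, and Il10 6.53% and 2.77%.

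Nt5e, which encodes CD73, the enzyme that follows CD39, was present in all groups and rose in CD4 cells. Treg PBS replicates 1, 2 and 3 held 9489, 4881 and 7132 normalized reads, CD4 PBS replicates 2 and 3 held 1177 and 832, and CD4 DTx replicates held 2460, 3193 and 2887. CD8 PBS held 2074 and 1378, and CD8 DTx held 2068, 1308 and 1466. Treg PBS, CD4 DTx and CD4 PBS did not overlap, whereas the 2 CD8 groups did.

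Nt5e was 2.86-fold higher in CD4 DTx than in CD4 PBS (limma, log2 fold change 1.52, SE 0.31, adjusted p = 0.00657), a call lost without CD4 PBS replicate 3 (1.27, adjusted p = 0.0972). In CD8 cells the difference was -0.10 (95% interval -0.76 to 0.57, adjusted p = 0.863), so an increase above 1.49-fold lay outside the interval. The effects in CD4 and CD8 cells differed by 1.61 (95% interval 0.66 to 2.56), with an unadjusted p of 0.00295 in limma but an adjusted p of 0.429. Levels stayed below Treg PBS in CD4 DTx (-1.29, SE 0.28, adjusted p = 0.0139), a call lost without Treg PBS replicate 1 (-1.06, adjusted p = 0.0601), and in CD8 DTx (-2.13, SE 0.28, adjusted p = 4.31e-04). The 2 enzymes of the adenosine route thus had different profiles after ablation, Entpd1 overlapping Treg PBS in both lineages and Nt5e in neither.

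Adora2a, the adenosine receptor gene, was not called in any of the 9 comparisons. Treg PBS replicates 1, 2 and 3 held 273, 216 and 254 normalized reads, CD4 PBS replicates 2 and 3 held 193 and 94.5, and CD4 DTx replicates held 180, 343 and 722. CD8 PBS held 474 and 140, and CD8 DTx held 317, 308 and 1857. Treg libraries were tight and lay above both CD4 PBS libraries, but each DTx group overlapped its PBS group, and a single library lifted the CD8 DTx mean to 828 ± 892 (SD, n = 3). Differences upon ablation were 1.39 in CD4 (95% interval -0.38 to 3.15, limma, adjusted p = 0.303) and 1.13 in CD8 cells (-0.63 to 2.90, adjusted p = 0.391), and without CD8 PBS replicate 3 the latter was 0.26. A rise of up to 8.89-fold in CD4 cells is within these intervals.

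Among the other adenosine receptors, Adora1 and Adora3 had no row. Adora2b, the low-affinity receptor, had 147, 17.3 and 84.8 normalized reads in the Treg libraries, 31.4, 177 and 57.9 in those of CD8 DTx, and 0 in all 7 libraries of CD4 PBS, CD4 DTx and CD8 PBS. The CD8 DTx mean of 88.8 ± 77.7 (SD, n = 3) was at least 22.2-fold higher than CD8 PBS against the floor of 3 reads per library, and the difference was called (limma, adjusted p = 0.00518). Without CD8 PBS replicate 3 that call was lost (adjusted p = 0.0678). Against CD4 DTx it was at least 22.5-fold higher (adjusted p = 0.0116), and the Treg mean of 83.1 ± 65.0 was at least 20.3-fold above CD4 PBS (adjusted p = 0.00279).

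Of 9 further ectoenzymes and purine receptors listed, 5 were tested, and Entpd2, Entpd3, Entpd8 and Enpp3 had no row. Cd38, an enzyme that starts another route to adenosine from NAD, rose in CD4 DTx (limma, log2 fold change 2.99, SE 0.46, adjusted p = 0.00118) and in CD8 DTx (3.32, SE 0.46, adjusted p = 0.00137). Cd38 was the only one of the 5 called in either, where 8.64% and 7.4% of all genes rose. Its level went from 142 and 108 normalized reads to 771, 1361 and 928 in CD4 cells, and from 383 and 244 to 2881, 4660 and 2147 in CD8 cells. P2rx7, a receptor for extracellular ATP, had differences of 2.06 and 1.66 in CD4 and CD8 cells that were not called (adjusted p = 0.135 and 0.226). P2rx4 was higher in CD4 DTx than in CD8 DTx (1.54, adjusted p = 0.0491).

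Of 7 genes for adenosine uptake and breakdown, Dpp4 alone rose in CD4 DTx, where 8.64% of all genes rose and 4.08% fell. It encodes CD26, the surface anchor of adenosine deaminase, and went from 2140 and 2067 normalized reads to 8323, 7679 and 5552 (limma, log2 fold change 1.75, SE 0.25, adjusted p = 6.87e-04). None of the 7 was called in CD8 DTx against CD8 PBS (7.4% of all genes rose and 3.47% fell), where Dpp4 was already at 6460 and 7147 in the PBS group. Of 13 genes of cyclic AMP signalling, 3 rose and none fell in CD4 DTx (8.64% and 4.08% of all genes), and 2 rose and 1 fell in CD8 DTx (7.4% and 3.47%). Crem, a transcription factor gene induced by cyclic AMP, was among those that rose in both (limma, 1.53, adjusted p = 0.0366, and 1.63, adjusted p = 0.0322). Without replicate 3 of the PBS group Crem was at 1.53 and 1.10 and was called in neither, and the list's other calls in CD8 DTx were lost too. Pde4a, a phosphodiesterase that degrades cyclic AMP, went from 12.3 and 0 normalized reads in CD4 PBS to 218, 253 and 250 in CD4 DTx (adjusted p = 0.00168). Treg PBS stood out by low Pde3b, another such enzyme, at 147 to 465 normalized reads against 4946 and 4678 in CD4 PBS (-4.42, adjusted p = 1.82e-04).

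**Figure D5:**
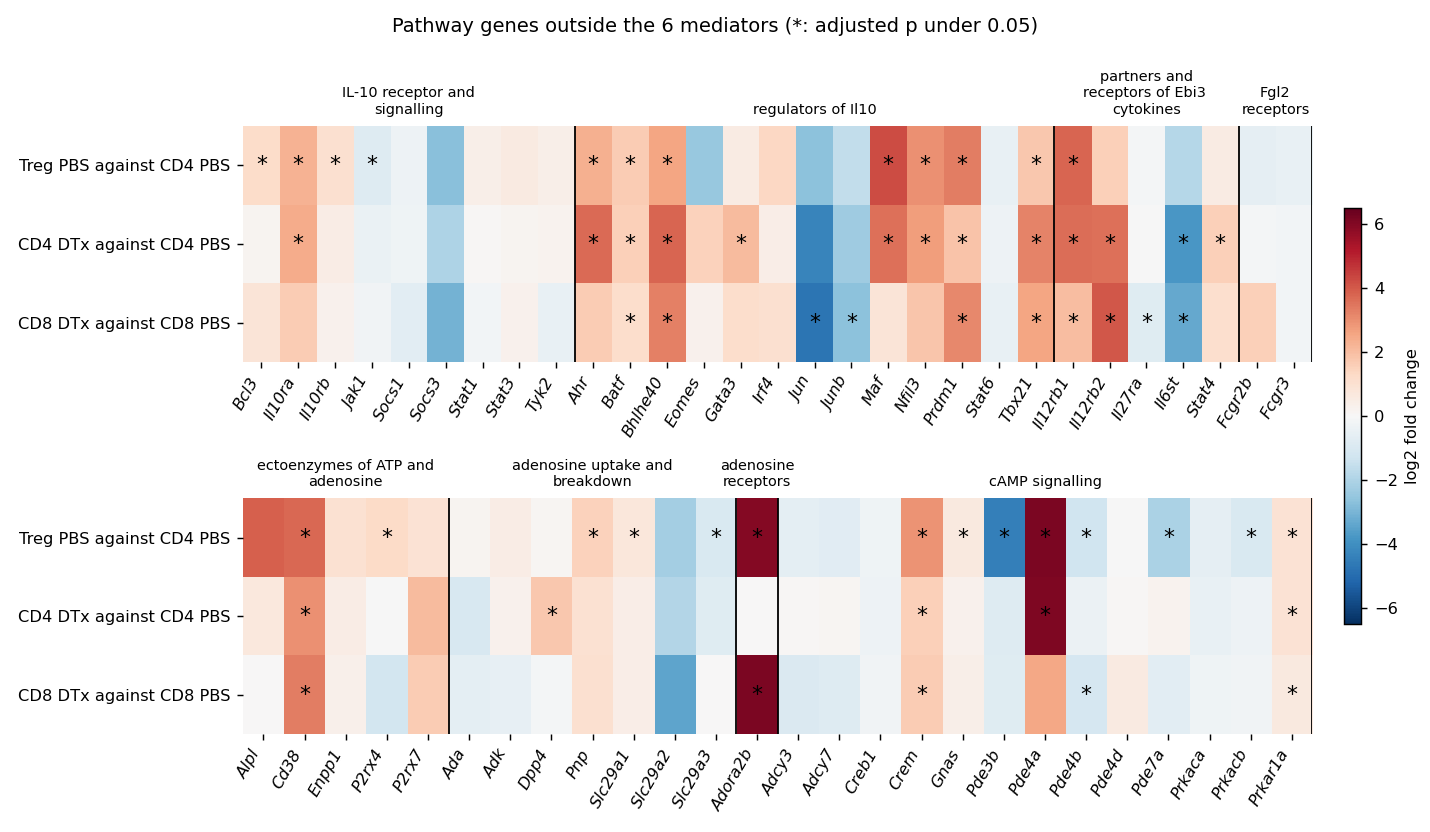
Log2 fold changes of 55 tested genes of the IL-10, Ebi3, Fgl2 and adenosine pathways in 3 comparisons, as colors from blue (lower in the first group) to red (higher), with asterisks at adjusted p under 0.05. Il12rb2 is red and Il6st blue in both comparisons of DTx with PBS, Maf is called in the 2 CD4 rows and Adora2b in the Treg and CD8 rows; fold changes of genes at 0 in a group, such as Adora2b, depend on the pseudocount.

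Genes often listed with IL-10-producing Foxp3-negative cells (type 1 regulatory T cells) were counted as a further list of 10, which shares Maf and Eomes with the list above. In CD4 DTx 8 of 10 rose and none fell (8.64% and 4.08% of all genes, list median 3.57, against -0.04 over all genes). The largest changes were in Havcr2 (5.32), Lag3 (4.31) and Itga2 (4.25). In CD8 DTx 7 of 10 rose and none fell (7.4% and 3.47% of all genes, list median 3.40), led by Gzmk (4.44) and Havcr2 (4.17). Eomes was not called in CD4 DTx (1.48, limma, adjusted p = 0.519) or CD8 DTx (0.30, adjusted p = 0.905), nor was Il21. Without replicate 3 of the PBS group the difference of Itga2 in CD4 DTx was 4.13 and its call was lost, as were some other calls of the list in both lineages. Treg PBS had 5 of these genes above CD4 PBS and 2 below (13.5% and 6.91% of all genes). Lag3 and Itga2, the surface pair used to define such cells, were at 26.2 and 1365 normalized reads in CD4 DTx replicate 1, which had no Il10 read, at 151 and 1552 in replicate 2, and at 183 and 844 in replicate 3.

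In bulk libraries a larger share of expressing cells and more RNA per cell cannot be told apart, and this holds for every rise given here. For CD4 DTx, the RNA that CD8 cells could bring was computed. The Cd8a share given above was highest in CD4 DTx replicate 3. At that share, CD8 cells at their DTx mean would bring 1.39 normalized reads of Ebi3, 1.22 of Il10, 122 of Entpd1, 52.2 of Nt5e and 314 of Fgl2. Measured levels in the CD4 DTx libraries were 0, 191 and 75.1 for Il10, 511 or more for Ebi3, 3102 or more for Entpd1, 2460 or more for Nt5e and 3318 or more for Fgl2. These amounts rest on Cd8a alone and set no upper bound. Cd8b1 was at 2360 in CD4 DTx replicate 3, against 37680 to 81586 in CD8 DTx. The RNA that CD4 cells could bring to CD8 DTx, where replicate 1 held Cd4 at 413, was not computed. The part of either in the results was not tested. Summed markers of B cells were at 93.5 to 158 normalized reads for CD4 DTx against 147 to 272 for CD4 PBS, those of dendritic cells at 382 to 660 against 102 to 312, and those of melanocytes at 89.0 to 185 against 435 to 498. Within CD8 cells these sums were 276 to 1297 in DTx against 805 to 863 in PBS for B cells. They were 615 to 693 against 221 to 436 for dendritic cells and 64.5 to 127 against 171 to 629 for melanocytes. Xcr1 led the dendritic sums of CD4 DTx, CD8 DTx and CD8 PBS on average, and Clec9a was at 0 in every library. In CD4 cells Xcr1 went from 73.8 and 21.8 to 604, 374 and 528 normalized reads. In CD8 cells it went from 139 and 96.0 to 657, 604 and 478. No other dendritic marker in the table lay wholly above its PBS group in either lineage. Cd209a fell from 88.8 and 44.3 to 0, 1.02 and 27.7 in CD4 cells and from 65.6 and 25.3 to 0, 0 and 24.2 in CD8 cells. Siglech fell from 30.4 and 45.3 to 0, 0 and 18.8 in CD8 cells and overlapped in CD4 cells. The part of B cells, dendritic cells and melanocytes in the results was not tested.

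Across the 13 libraries the genes differed in what they followed. The highest Pearson correlation of log2 levels between any pair of the 6 was 0.953, for Fgl2 and Entpd1, then 0.896 for Ebi3 and Nt5e, and Adora2a had correlations of 0.0449 to 0.572 with the other 5. The genes most like each of them over the same libraries were Rassf6 for Il10 (0.979), Tnfrsf4, which encodes OX40, and Maf for Ebi3 (0.983 and 0.974), Slc16a3, a lactate exporter, for Fgl2 (0.983), Psrc1 for Entpd1 (0.987), St6galnac3 for Nt5e (0.959) and Nsmaf for Adora2a (0.907). Rassf6 was at a mean of 212 normalized reads in Treg PBS, 35.5 in CD4 DTx, 18.9 in CD8 DTx and 0 in both PBS-treated Tconv groups. These are descriptions over libraries that share 5 groups, so any genes with the same order of group levels correlate strongly.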

How the data were processed

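Bulk RNA sequencing of sorted T cells was analysed from 1 deposited table. The authors, by their labels and methods, prepared SMART-type libraries, trimmed reads with Cutadapt, aligned them to NCBIM37 (mm9) and normalized counts per gene; the strand setting is not given in the sources used here. The deposited signal, named FPM by the authors, was in every library 100% whole multiples of 1 step (within 0.01 of a read), as reads divided by a size factor give, and is called normalized reads. Recovered reads are those multiples. In 21 rows the symbol had become a date, and 53 genes were at 0 throughout. No column was left unused.

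The 12667 genes that reached 10 normalized reads in 2 or more libraries were fitted as log2(value + 1) with limma 3.58.1 (R 4.3.3, trend), with 1 mean per group over all 13 libraries. A call is a Benjamini-Hochberg adjusted p under 0.05 over all genes. Reported fold changes keep that scale, which understates changes of low genes. edgeR 4.0.16 and DESeq2 1.42.0 on recovered reads, a pseudocount of 10, no filter, TMM scaling, a 4-fold threshold, the groups of a comparison alone, a replicate block and leaving out each library were alternatives. Pathway genes were named as listed receptors of the mediators and of ATP, with any test result, or as up to 4 of the largest called changes of a list in a comparison. The genes and lists were chosen with earlier results of these data known. Same-numbered libraries of CD4 DTx and CD8 DTx deviated together (r = 0.36, 0.207 and 0.59 over genes), so these numbers were taken to pair samples of those groups only. Other groups were not free of it, as CD4 PBS with CD8 PBS gave 0.189 and 11 of 23 values in all were over 0.1. Jun rose with replicate number in every group, as in CD8 DTx (85.9, 356 and 1341 normalized reads). The PBS-treated Tconv groups have no replicate 1, so DTx and PBS are not balanced over replicate number. Neither the study nor the labels tie numbers to days or animals, so p-values measure the spread between these libraries.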

Additional observations from a re-analysis of the deposited data

How the results depend on the processing

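The count of mediators called for CD8 DTx against CD8 PBS was 2, and 0 with those groups fitted alone. For CD4 DTx against Treg PBS it was 2, and 1 with a 4-fold threshold (Il10), 1 with no filter and 1 with TMM scaling (Nt5e in both). For CD4 DTx against CD8 DTx it was 1, and 0 with those groups fitted alone, where fewer libraries set the spread. Elsewhere these settings, edgeR and DESeq2 changed a count by at most 1. Leaving out 1 library gave 3 to 5 called for CD4 DTx against CD4 PBS, 1 to 2 for CD8 DTx against CD8 PBS, 0 to 2 for CD4 DTx against Treg PBS, 4 to 5 for Treg PBS against CD8 PBS (Il10 lost without CD8 PBS replicate 3, adjusted p = 0.0523 in limma) and 0 to 1 for CD4 PBS against CD8 PBS. Without replicate 3 of the PBS group, a setting chosen after seeing the data, part of the called pathway genes lost their call. This held in Treg PBS against CD4 PBS, CD4 DTx against CD4 PBS and CD8 DTx against CD8 PBS. Such a fit leaves 1 library in the PBS group. In Treg PBS against CD4 PBS, Il10rb was at 1.04 with and without it, while Il10ra went from 2.25 to 1.48. Pathway genes were not refitted without replicate 2, and the share of all genes called without replicate 3 was not computed. The replicate block added Ebi3 in CD4 DTx (adjusted p = 0.0462) and Il10 in CD8 DTx (adjusted p = 0.0439) against Treg PBS and changed no other call by limma.

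Of single fold changes under an alternative, 624 kept direction and call, 17 lost and 14 gained a call and 35 changed sign. None of the values that changed sign was called. Adora2a in Treg PBS against CD8 PBS was 0.21 with the block. Il10 in CD4 DTx against CD8 DTx was 0.43 with a pseudocount of 10, 1.21 in edgeR and 1.23 in DESeq2, its interaction was 0.46, 1.20 and 1.4, and in CD4 PBS against CD8 PBS it was 0.0082 in edgeR. Without 1 library, values ran from -0.39 to 0.20 for Nt5e in CD8 DTx against CD8 PBS, -0.42 to 0.039 for Entpd1 in CD8 DTx against Treg PBS, and -0.94 to 0.81 for Adora2a in Treg PBS against CD8 PBS. For CD4 DTx against CD8 DTx they ran from -1.76 to 2.03 (Il10), -0.17 to 0.083 (Entpd1) and -1.18 to 0.18 (Adora2a), for CD4 PBS against CD8 PBS from -0.99 to 0.79 (Il10) and -2.68 to 0.10 (Fgl2), and for the interaction from -1.66 to 2.13 (Il10), -1.11 to 1.68 (Fgl2) and -0.62 to 1.13 (Adora2a). The cause was not tested.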
